A study of Mus musculus with 4 samples.

Results

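The red cell genes described here are the 4 adult globin genes Hba-a1, Hba-a2, Hbb-bs and Hbb-bt, the haem synthesis gene Alas2 and the red cell anion exchanger gene Slc4a1. They were chosen by symbol, and all 6 were found among the 55335 genes of the deposited count table. Polyadenylated RNA of mouse testes was sequenced at postnatal day 14, in 2 libraries of genotype Znhit1_KO and 2 of genotype CTRL. Znhit1 encodes a subunit of the chromatin remodelling complex that places the histone variant H2A.Z, and the study asks how its disruption affects gene expression in meiotic prophase. The labels describe the 2 libraries of each group as independent biological replicates. The sources used here do not give the strain, the construction of the knockout, any Cre driver, or whether the tissue was rinsed or perfused.

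Red blood cells carry oxygen on haemoglobin, a tetramer of alpha and beta globin chains around haem. Mammalian red cells have lost their nucleus, but the youngest of them, the reticulocytes, still hold globin mRNA, so that globin transcripts enter the RNA of any tissue whose vessels contain blood. Haem is made in mitochondria and cytosol by a chain of enzymes whose first step, in erythroid cells, is catalysed by ALAS2, while SLC4A1, also called band 3, exchanges chloride for bicarbonate and anchors the membrane skeleton. The testis is not a site of red cell formation after birth, and the genes serve here to compare how much blood RNA the 4 libraries hold.

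The members of each globin pair are near-identical copies, and this limits what their separate values mean. In the GENCODE M21 coding sequences, Hba-a1 and Hba-a2 were identical at 425 of 426 bases (99.8%), and Hbb-bs and Hbb-bt at 440 of 441 (99.8%). The single differing base of each pair is shown in capitals below with 20 coding bases on either side, because it alone can assign a coding read to one copy. It is C381T from Hba-a1 to Hba-a2 and C417T from Hbb-bs to Hbb-bt, counted from 1 at the first base of the start codon.
Hba-a1: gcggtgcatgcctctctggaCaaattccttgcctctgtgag
Hba-a2: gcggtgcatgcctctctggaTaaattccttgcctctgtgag
Hbb-bs: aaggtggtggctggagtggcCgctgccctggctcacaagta
Hbb-bt: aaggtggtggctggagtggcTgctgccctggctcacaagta
The sources used here do not say how the authors' counting divided reads between the copies, so the values of single copies are uncertain and the sum over the 4 globin genes is given beside them.

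The 4 globin genes also share promoter elements, which are shown as background on the genes. Any part of these elements in the values of the libraries was not tested. RefSeq promoter windows (GRCm38.p6, the assembly of mm10) were found for 5 of the 6 genes. Printed are the bases upstream of the outermost GENCODE M21 start, with letters in capitals where they match 1 of 4 motifs on either strand. The GATA element, the core bound by GATA factors, was searched as GATAA. The CACC box, bound by KLF factors such as the product of Klf1, was searched as CACCC. The CCAAT box was searched by its own letters, and the TATA box, which places the transcription start, was searched as ATATAA. The windows are chr11:32296242-32296488 for Hba-a2, chr7:103828097-103828178 for Hbb-bs and chrX:150547167-150547374 for Alas2, on the plus, minus and plus strand.
Hba-a2: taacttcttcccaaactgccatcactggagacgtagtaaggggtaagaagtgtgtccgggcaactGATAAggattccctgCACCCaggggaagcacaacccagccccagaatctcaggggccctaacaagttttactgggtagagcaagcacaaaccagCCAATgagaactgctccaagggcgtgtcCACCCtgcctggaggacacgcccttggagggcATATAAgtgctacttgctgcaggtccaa
Hbb-bs: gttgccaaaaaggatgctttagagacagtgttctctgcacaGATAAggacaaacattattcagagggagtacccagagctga
Alas2: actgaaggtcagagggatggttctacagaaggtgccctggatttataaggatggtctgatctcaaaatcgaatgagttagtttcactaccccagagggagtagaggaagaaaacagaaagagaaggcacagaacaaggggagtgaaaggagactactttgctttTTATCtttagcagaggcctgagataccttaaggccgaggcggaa
The windows of Hba-a1 and Hba-a2 were identical over 297 aligned bases. In the 250 bases before the RefSeq start, all 4 globin genes held each of the 4 motifs, and Alas2 held a GATA element and CACC boxes but neither of the others. The printed Hbb-bs and Alas2 sequences show only a GATA match, since their other matches lie in the part of the 250 bases that is not printed. Among 32851 windows of that length, the GATA element was present in 22.6%, the CACC box in 52.0%, the CCAAT box in 33.9%, the TATA box in 9.10%, and all 4 together in 0.466%. These matches describe letters only.

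Each library held estimated counts of between 129531714 and 157790457 in total. Values below are counts per 1000000 (CPM) scaled with TMM factors, a correction for differences in library composition. The targeted gene, Znhit1, stood at 17.3 and 31.9 CPM in CTRL and at 3.15 and 2.14 CPM in Znhit1_KO. Germ cell, Sertoli cell and Leydig cell markers were detected in all 4 libraries, with summed levels of 1916 to 3929, 5353 to 7578 and 172 to 246 CPM. In whole tissue, fewer cells of a type and less RNA per cell cannot be told apart.

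The globin transcripts differed far more between the libraries of 1 genotype than between the genotypes. Together the 4 globin genes stood at 13.4 CPM in CTRL replicate 1 and 94.3 CPM in CTRL replicate 2, and at 17.1 CPM in Znhit1_KO replicate 1 and 211 CPM in Znhit1_KO replicate 2. Both replicate 2 libraries were high and both replicate 1 libraries were low, and the genotypes overlapped. As a share of all counts, the globin genes took 51.5 ± 53.0 counts per 1000000 in CTRL and 115.5 ± 139.1 per 1000000 in Znhit1_KO (SD, n = 2 each), so that the SD exceeded the mean in both groups. The log2 share was 0.78 higher on average in Znhit1_KO, with an exact two-sided permutation p of 0.667; the smallest p that 2 against 2 libraries allow is 0.33. Without Znhit1_KO replicate 2 that difference was -1.04, and without CTRL replicate 1 it was -0.56.

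The alpha globin genes lie in 1 cluster on chromosome 11 and encode the same chain of haemoglobin. Hba-a1 (ENSMUSG00000069919.7, chr11:32283511-32284465, plus strand) stood at 3.79 and 22.6 CPM in CTRL replicates 1 and 2, and at 4.77 and 58.7 CPM in Znhit1_KO replicates 1 and 2. Hba-a2 (ENSMUSG00000069917.7, chr11:32296489-32297298, plus strand) stood at 2.52, 18.4, 3.15 and 44.2 CPM in the same order. For both genes Znhit1_KO replicate 2 was the highest library and CTRL replicate 1 the lowest, and the genotypes overlapped. Within CTRL the replicate 2 value was 5.95 times the replicate 1 value for Hba-a1 and 7.32 times for Hba-a2. Within Znhit1_KO these ratios were 12.3 and 14.1. The log2 change from CTRL to Znhit1_KO was 1.27 (SE 1.27) for Hba-a1 and 1.18 (SE 1.35) for Hba-a2, with adjusted p of 0.762 and 0.795 in edgeR's quasi-likelihood test over all genes.

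The beta globin genes lie on the minus strand of chromosome 7. Hbb-bs (ENSMUSG00000052305.6, chr7:103826534-103828096) stood at 4.77 and 36.2 CPM in CTRL replicates 1 and 2, and at 6.25 and 74.7 CPM in Znhit1_KO replicates 1 and 2. Hbb-bt (ENSMUSG00000073940.3, chr7:103812524-103813996) stood at 2.34, 17.1, 2.92 and 32.9 CPM in the same order. The order of the libraries was that of the alpha genes, from CTRL replicate 1 through Znhit1_KO replicate 1 and CTRL replicate 2 to Znhit1_KO replicate 2. The replicate 2 library exceeded the replicate 1 library by 7.60 times for Hbb-bs and 7.30 times for Hbb-bt in CTRL, and by 12 and 11.3 times in Znhit1_KO. The log2 changes were 0.98 (SE 1.31) and 0.89 (SE 1.29), with edgeR adjusted p of 0.830 and 0.845.

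Alpha and beta transcripts kept a nearly even ratio in every library while their level moved. On the authors' TPM scale, which corrects for transcript length, the summed alpha genes stood at 26.2, 151, 31.8 and 414 TPM in CTRL replicates 1 and 2 and Znhit1_KO replicates 1 and 2. The summed beta genes stood at 28.8, 189, 36.0 and 418 TPM. The alpha to beta ratio was therefore 0.912, 0.799, 0.885 and 0.988 in that order. Hbb-bs was 2.29 to 2.54 times Hbb-bt in TPM, and Hba-a1 was 0.971 to 1.20 times Hba-a2, so that Hbb-bs was the most abundant of the 4 per length in each library. The near-identical coding sequences above bear on both of these within-pair ratios.

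**Figure D1:**
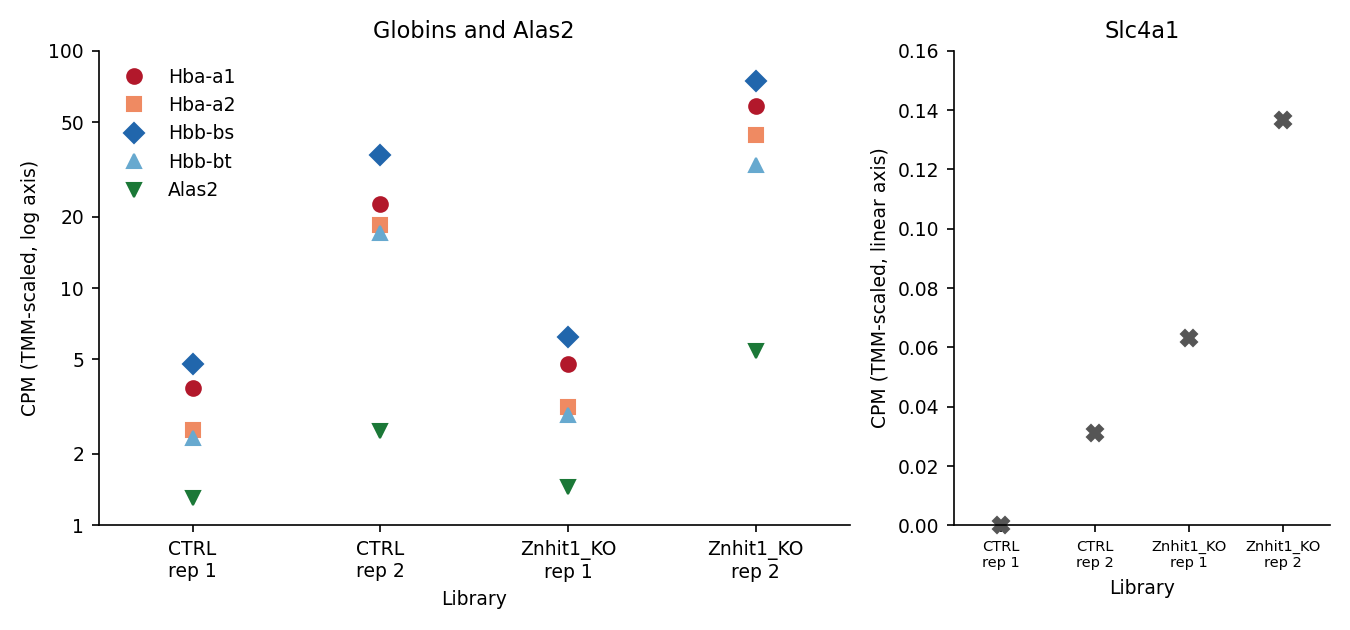
Level of each red cell gene in the 4 libraries, in TMM-scaled CPM, with 1 point per gene and library; the left axis is logarithmic and the right axis linear. The globin points are high in both replicate 2 libraries and low in both replicate 1 libraries, from 2.34 CPM (Hbb-bt, CTRL replicate 1) to 74.7 CPM (Hbb-bs, Znhit1_KO replicate 2), while Slc4a1 stays at or under 0.137 CPM.

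Alas2, the erythroid form of the first enzyme of haem synthesis, followed the same order of libraries over a smaller range. Alas2 (ENSMUSG00000025270.13, chrX:150547375-150570638, plus strand) stood at 1.31 and 2.5 CPM in CTRL replicates 1 and 2, and at 1.45 and 5.43 CPM in Znhit1_KO replicates 1 and 2. Its highest library was 4.14 times its lowest, against 14.1 to 17.6 times for the globin genes. In TPM, Alas2 came to 3.56% and 2.92% of the globin sum in the replicate 1 libraries of CTRL and Znhit1_KO, and to 0.898% and 0.856% in the replicate 2 libraries. Its log2 change was 0.85 (SE 0.696), with an edgeR adjusted p of 0.706. Apex2, a DNA repair gene on the opposite strand, shares 311 exon bases with Alas2, which is 12.9% of the exon bases of Alas2. Apex2 stood at 8.62 and 5.11 CPM in CTRL and at 10.7 and 6.60 CPM in Znhit1_KO, higher in the replicate 1 libraries. The sources used here do not say whether the libraries keep strand, and the part of Apex2 reads in the Alas2 values was not tested.

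Slc4a1 was close to the limit of detection. Slc4a1 (ENSMUSG00000006574.15, chr11:102348824-102366203, minus strand) had estimated counts of 0 and 4 in CTRL replicates 1 and 2, and of 10 and 19 in Znhit1_KO replicates 1 and 2. These counts correspond to 0, 0.0311, 0.0633 and 0.137 CPM. With counting error alone considered, the count of 0 allows up to 0.0222 CPM if counts are taken as reads. They are not reads, so this bound may be too low. It was the 1 red cell gene here in which both Znhit1_KO libraries lay above both CTRL libraries, a separation that 21.8% of the tested genes showed. It did not pass the filter on low counts and so has no value in the main test; with no filter its log2 change was 2.62 (SE 1.72) with an edgeR adjusted p of 0.748. Low estimated counts are not numbers of reads, since values of 4 were more frequent (1109 genes in CTRL replicate 1) than the neighbouring values 3 and 5 (mean of 736), and 4 counts may stand for very few fragments.

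Of the 6 genes, 5 passed the filter and 0 were called by edgeR at an adjusted p of 0.05. In all, 0 of 24116 genes (0%) were called. The targeted gene Znhit1 was among those not called (log2 change of -3.22, edgeR adjusted p of 0.264), while the authors' deposited table marks it as down. At an unadjusted p under 0.05 edgeR had 0 of the 5 tested red cell genes, against 10.7% of all tested genes. DESeq2 called 0 of the 5 against 4.32% of all tested genes, and limma-voom called 0 of the 5 and 0 of all. The authors' deposited table marks none of the 6 as changed, against 3.5% of its 25236 genes, and gives log2 changes of 1.28 for Hba-a1 (adjusted p of 0.921) and 2.69 for Slc4a1 (adjusted p of 0.762). All 5 log2 changes were positive, as were 53.1% of all, and their median was 0.98 against 0.03 over all tested genes. Without Znhit1_KO replicate 2 all 5 log2 changes were negative, from -1.75 for Hba-a2 to -0.42 for Alas2.

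**Figure D2:**
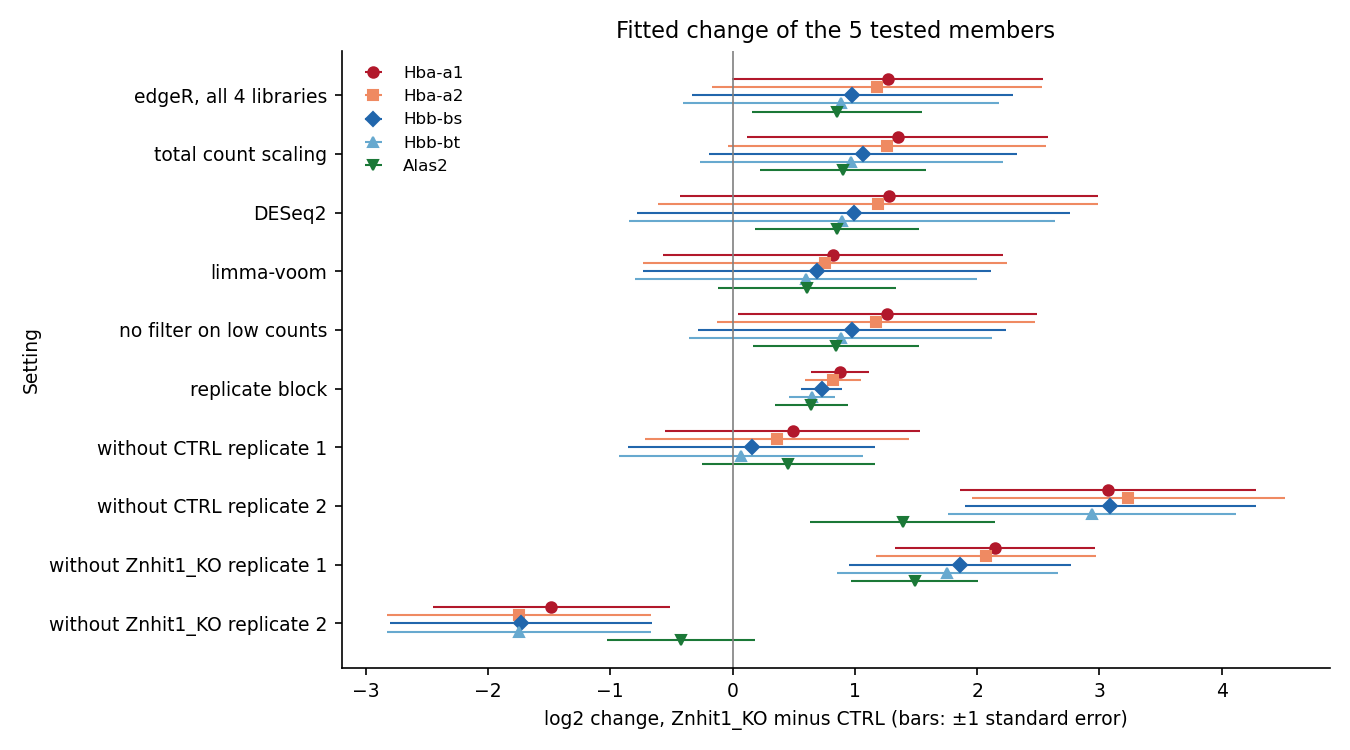
Log2 change from CTRL to Znhit1_KO of the 5 tested genes, with bars of 1 standard error, under the main edgeR fit and each alternative, including those that leave out 1 library. The values lie between 0.07 and 3.24 in all settings except that without Znhit1_KO replicate 2, where they lie between -1.75 and -0.42.

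The spread of the globin genes over the 4 libraries was wide among all genes. On the log2 CPM scale the highest library exceeded the lowest by 3.95 for Hba-a1, 4.13 for Hba-a2, 3.97 for Hbb-bs and 3.81 for Hbb-bt, where the median over 24116 tested genes was 0.807. A range at least as wide was found in 3.15%, 2.60%, 3.10% and 3.68% of tested genes for these 4 in turn. The range of Alas2 was 2.04, which 15.4% of genes reached. The biological coefficient of variation that edgeR fitted was 0.801 to 0.845 for the globin genes and 0.504 for Alas2, against a median of 0.295. Both replicate 2 libraries lay above both replicate 1 libraries for all 5 tested red cell genes, a pattern found in 21.2% of all tested genes, while 23.2% showed the reverse.

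**Figure D3:**
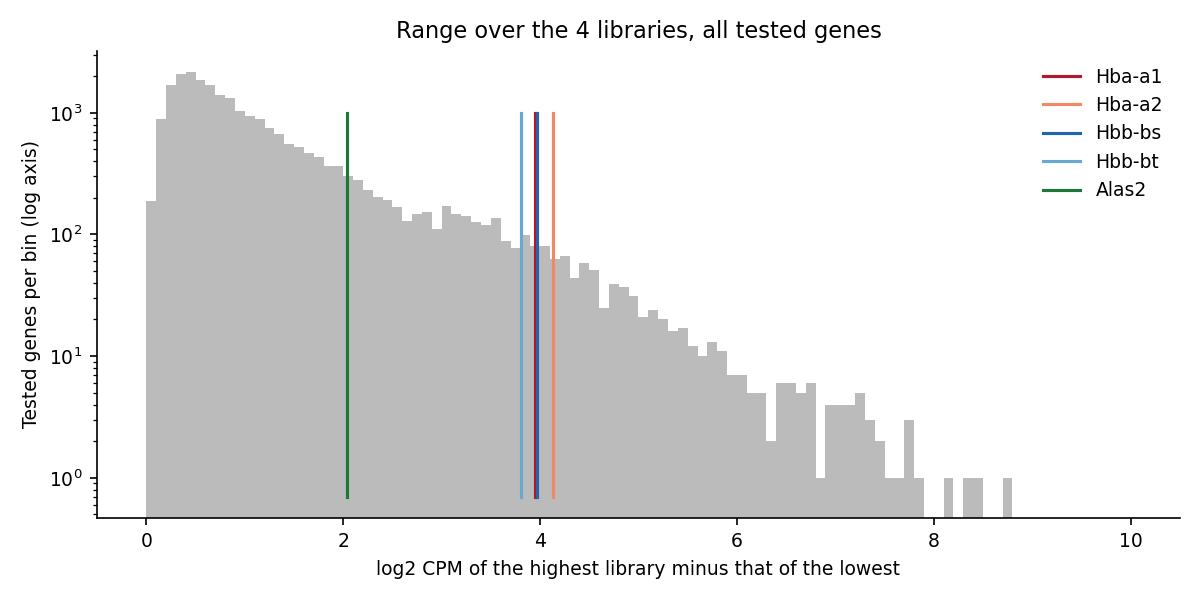
Number of tested genes (grey bars, logarithmic axis) by the difference in log2 CPM between their highest and lowest library; coloured lines mark the 5 tested red cell genes, and the height of a line carries no value. The 4 globin genes lie between 3.81 and 4.13 and Alas2 at 2.04, beyond the median of 0.807.

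Other genes of the red cell had a narrower median range over the libraries than the globins. Across 5 lists of further globins, haem synthesis, the red cell membrane, erythroid regulators and red cell cytosol and maturation, 56 of 57 symbols were found (all but Ahsp), 41 passed the filter, and edgeR called 0 higher and 0 lower. At an unadjusted p under 0.05 there were 4 of the 41, against 10.7% of all tested genes, and DESeq2, which called 4.32% of all, and limma-voom called 0. Both replicate 2 libraries lay above both replicate 1 libraries for 7 of the 41, against 21.2% of all tested genes, and both lay below for 12, against 23.2%. The median range of the 41 over the libraries was 0.731 on the log2 scale.

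Among the further globins, the embryonic genes Hbb-y and Hbb-bh1 had counts of 0 in all 4 libraries, as had Hbb-bh2 and Hbq1a. The embryonic alpha-like gene Hba-x had 6, 0, 0 and 4 counts in CTRL replicates 1 and 2 and Znhit1_KO replicates 1 and 2. Cygb, a globin of non-erythroid cells, stood at 13.5, 9.03, 16.1 and 12.4 CPM in the same order, highest in a library where the haemoglobin genes were low. Ngb, the globin of neurons, stood at 0.570, 0.405, 0.956 and 0.727 CPM.

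The 12 haem synthesis genes had a median log2 change of 0.17 and summed levels that varied by 1.21 times over the libraries. Alas1, the form of the first enzyme outside the erythroid lineage, stood at 61.9 and 74.3 CPM in CTRL and at 79.6 and 70.7 CPM in Znhit1_KO. Fech, which inserts iron into the ring, stood at 72.3 and 99.9 CPM in CTRL and at 75.5 and 98.3 CPM in Znhit1_KO. It was with Urod 1 of 2 genes of these 12 whose replicate 2 libraries were both higher, against 21.2% of all tested genes.

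Some genes of the red cell membrane were at or near 0, and others were not. Rhag had 0, 0, 4 and 5 counts, and Epb42 had 4, 0, 4 and 0, in CTRL replicates 1 and 2 and Znhit1_KO replicates 1 and 2. Ermap, an erythroid surface protein, followed the order of replicate numbers at 0.0963, 0.460, 0.0760 and 0.727 CPM. Icam4 went the other way at 0.207, 0.0545, 0.165 and 0.0576 CPM. Of the 13 tested genes of the list, 3 had both replicate 2 libraries higher, against 21.2% of all tested genes. Both were lower for 4 of the 13, against 23.2%. Sptb, a spectrin of the membrane skeleton, was far more abundant at 104, 91.5, 170 and 121 CPM and took much of the list's sum. Rhd, a blood group gene, stood at 3.24, 2.16, 1.09 and 1.15 CPM. It had the lowest log2 change of the list (-1.27, SE 0.361, edgeR adjusted p of 0.340). Both of its Znhit1_KO libraries lay below both CTRL libraries, as for 21.3% of all tested genes.

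Regulators of red cell formation were present at levels that did not follow the globins. Gata1, the erythroid master regulator that Sertoli cells also express, stood at 68.1 and 47.5 CPM in CTRL and at 82.1 and 44.5 CPM in Znhit1_KO, lower in the replicate 2 libraries. Its cofactor Zfpm1 stood at 105, 83.1, 138 and 95.2 CPM in the same order. Klf1, the factor of adult beta globin expression, stood at 0.733, 0.436, 0.690 and 0.468 CPM, also lower in the replicate 2 libraries. Both replicate 2 libraries lay above both replicate 1 libraries for 0 of the 7 tested regulators, against 21.2% of all tested genes. Both lay below for 4 of the 7, against 23.2%.

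Of the cytosolic and maturation genes, Car1, a red cell carbonic anhydrase, had 0 counts in all 4 libraries. Tspo2, an erythroid membrane protein, had 17 counts in Znhit1_KO replicate 2 and 0 in the others. Tfrc, the transferrin receptor of dividing and erythroid cells, stood at 135, 183, 117 and 158 CPM.

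Sums of markers of other blood cells varied by 1.33 to 1.83 times over the libraries, against 15.7 times for the globins. The 12 neutrophil genes summed to 3.57 and 4.33 CPM in CTRL replicates 1 and 2 and to 2.80 and 3.51 CPM in Znhit1_KO replicates 1 and 2, higher in the replicate 2 library of each genotype. Most of it was Mmp9, Csf3r and Mpo, and S100a8, S100a9, Ltf, Elane and Mmp8 had 0 counts in all 4 libraries. The 11 platelet genes summed to 18.2, 24.1, 22.0 and 22.6 CPM in CTRL replicates 1 and 2 and Znhit1_KO replicates 1 and 2, most of it Itgb3, Gp1ba and Itga2b. Pf4, a platelet chemokine that macrophages also make, stood at 0.422, 0.545, 0.171 and 1.61 CPM. The 12 lymphocyte genes summed to 9.83, 7.70, 6.29 and 5.36 CPM, with Cd3e, Trac and Ighm the most abundant. Cd3e, which took much of the CTRL sums, stood at 4.94 and 4.09 CPM in CTRL and at 0.633 and 0.835 CPM in Znhit1_KO. Trac stood at 2.75, 0.787, 3.35 and 1.62 CPM and Ighm at 1.07, 1.09, 1.73 and 1.90 CPM in the order of the sums.

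Macrophage genes shared the order of the libraries with a smaller amplitude. The 12 genes summed to 65.2 and 86.0 CPM in CTRL replicates 1 and 2 and to 73.0 and 110 CPM in Znhit1_KO replicates 1 and 2, a range of 1.68 times against 15.7 times for the summed globins. Both replicate 2 libraries lay above both replicate 1 libraries for 6 of the 12, and below for 0. Csf1r, the receptor that macrophages depend on, stood at 5.75, 12.6, 8.96 and 20.1 CPM, and Lyz2, a lysozyme, at 6.44, 11, 7.36 and 14.8 CPM. Mrc1, the most abundant of the list, stood at 34.7, 32.1, 34.1 and 36.2 CPM and did not. The 15 endothelial genes summed to 159, 184, 201 and 208 CPM, and the pattern held for 7 of them, among them Vwf at 11, 19.5, 18.5 and 25.5 CPM; Eng and Cdh5 were the most abundant and were not among them. These counts stand beside 21.2% of all tested genes with both replicate 2 libraries higher and 23.2% with both lower.

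Some markers of testis cells had the same order of libraries as the globins, and others did not. The 8 germ cell genes summed to 2623 and 3929 CPM in CTRL replicates 1 and 2 and to 1916 and 2639 CPM in Znhit1_KO replicates 1 and 2, higher in the replicate 2 library of each genotype. The 7 Leydig cell genes summed to 172, 175, 234 and 246 CPM, and Hsd3b1, a steroidogenic enzyme gene, stood at 13.9, 24.6, 15.5 and 34.7 CPM, in the order of the globins. Insl3, a Leydig cell hormone gene named here after its values were seen, had that order too, at 4.09, 9.73, 5.38 and 13.0 CPM. Nr5a1, the most abundant of the 7, did not, at 133.5, 112.1, 174.9 and 149.3 CPM. Both Znhit1_KO libraries lay above both CTRL libraries for 4 of 7 Leydig and 9 of 10 Sertoli cell genes, against 21.8% of all. Both lay below for 4 of 8 germ cell genes, against 21.3% of all tested genes. DESeq2, which called 4.32% of all tested genes, called 2 of 7 Leydig, 2 of 8 germ and 0 of 10 Sertoli cell genes. It also called 1 of 12 macrophage and 1 of 9 tested lymphocyte genes, and edgeR called 0 in each of these lists. Both replicate 2 libraries lay above both replicate 1 libraries for 3 of 8 germ cell, 3 of 7 Leydig and 0 of 10 Sertoli cell genes. The share over all tested genes was 21.2%. The part of blood, macrophage, endothelial or testis cells in the globin values was not tested.

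**Figure D4:**
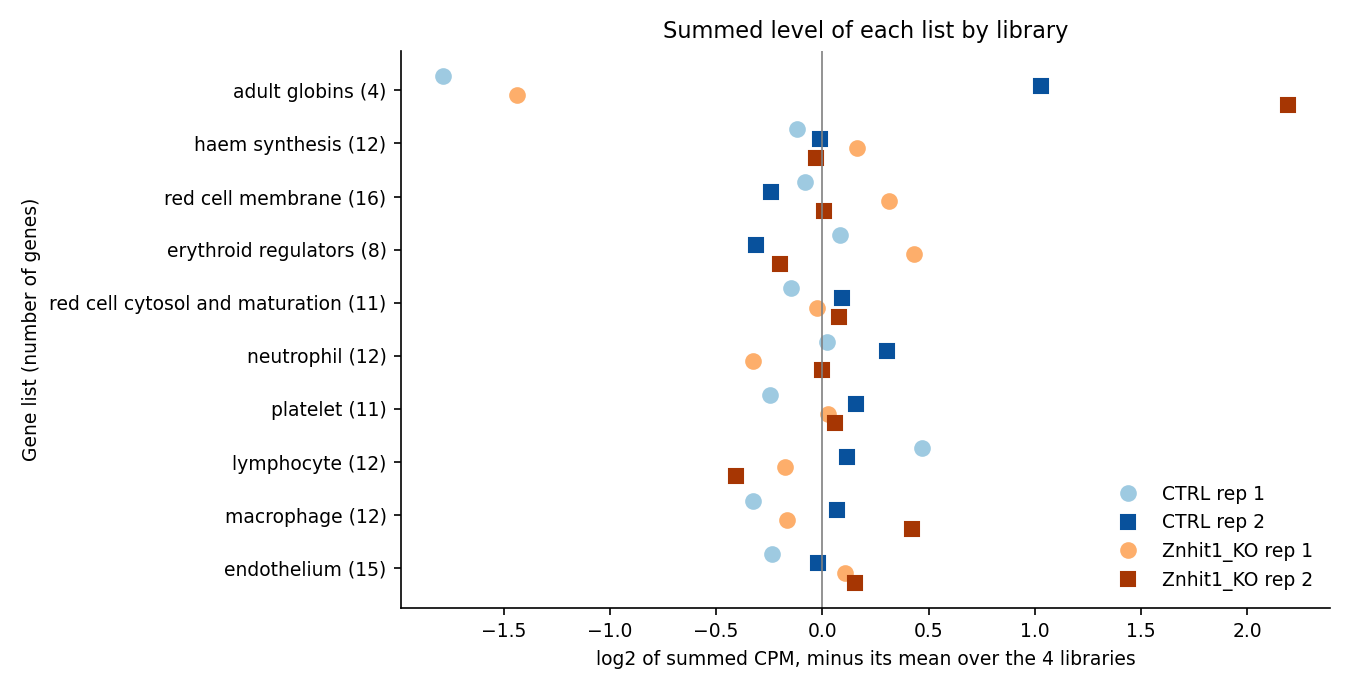
Summed CPM of the adult globins and 9 lists of red cell, other blood cell, macrophage and endothelial genes in the 4 libraries, as log2 minus the mean of that list over the libraries; circles are replicate 1 and squares replicate 2, blue CTRL and orange Znhit1_KO. The adult globins spread over 15.7 times from CTRL replicate 1 to Znhit1_KO replicate 2, while the 9 other lists plotted spread over 1.83 times or less.

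The genes whose profile over the 4 libraries lay closest to the mean profile of the 5 tested red cell genes were not erythroid markers of these lists. Closeness was the Euclidean distance between log2 CPM values, each centred on its mean over the 4 libraries, among 15756 genes with a mean of at least 1 CPM. The closest were the processed pseudogene Gm7535 (0.843), the processed pseudogene Gm10259 (0.880), Gm10184 (0.910), the flavin monooxygenase gene Fmo2 (0.911) and the sperm tail gene Tekt4 (1.09). The members' own distances were 0.292 to 0.490 for the globin genes and 1.45 for Alas2, which was thus further from the mean profile than these 5. Fmo2 stood at 0.740, 2.03, 0.734 and 4.24 CPM, and Gm10259 at 8.25, 61.6, 8.67 and 58.6 CPM, in CTRL replicates 1 and 2 and Znhit1_KO replicates 1 and 2. With 4 libraries such closeness describes the profiles only.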

How the data were processed

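The 4 libraries of testis poly(A) RNA, 2 per genotype, were used. The submitters' processing notes name StringTie 2.2.1, DESeq2 1.38.3, HISAT2 2.2.1 and cutadapt 2.5, with build mm10, while counting method, annotation and strandedness have no source here. The authors' deposited gene table holds whole-number estimated counts, taken as made from coverage and not as reads, since their totals exceed the reads that the labels state and values of 4 are over-represented, so counting errors are understated. The authors' deposited comparison table gives TPM, a mean normalised signal, log2 fold changes with standard errors, Wald scores, and raw and adjusted p-values; only TPM, log2 changes and adjusted p were printed. Columns were matched to libraries by name.

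Counts were tested with edgeR 4.0.16 in R 4.3.3 (quasi-likelihood, TMM, filterByExpr, genotype as the only term, Benjamini-Hochberg over all genes), which was tested on simulated data; standard errors come from the F statistic. DESeq2 1.42.0, limma 3.58.1 (voom), total count scaling, no filter, a replicate block and leaving out each library were alternatives. The 6 genes and the lists were chosen with earlier results of these data known. Genes named were the 6, any gene of the red cell lists, the most abundant 3 and those at 0 or singled out in lists of other cells (named after their values were seen), and the 5 nearest profiles. Positions come from GENCODE M21. Some genes of the lists are not reported here by name.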

Additional observations from a re-analysis of the deposited data

How the results depend on the processing

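No red cell gene was called by the main test, and DESeq2, limma-voom, total count scaling and no filter on low counts gave log2 changes of the 5 tested genes between 0.60 and 1.35, with 0 called. DESeq2 called 1041 genes in all, against 0 by edgeR. Without Znhit1_KO replicate 2 the log2 changes turned to -1.48 for Hba-a1, -1.75 for Hba-a2, -1.73 for Hbb-bs, -1.75 for Hbb-bt and -0.42 for Alas2. Without CTRL replicate 2 they were 3.07 for Hba-a1, 3.24 for Hba-a2, 3.09 for Hbb-bs, 2.94 for Hbb-bt and 1.39 for Alas2. Without Znhit1_KO replicate 1 they were 1.49 to 2.15, and without CTRL replicate 1 they were 0.07 to 0.49. With 1 library left out, the genes called ranged from 0 to 754 (754 without CTRL replicate 1), the red cell genes called from 0 to 0, and the difference in log2 globin share from -1.04 to 2.60; it was -0.56 without CTRL replicate 1. Such fits leave 1 library in a group, which is assumed to vary like the other group. With the replicate block, 2737 genes and 1 red cell gene, Hbb-bs (0.73, SE 0.168, edgeR adjusted p of 0.0373), were called, on 1 residual degree of freedom. The labels do not say that a replicate number marks a shared litter, batch or day. Deviations of same-numbered libraries correlated at 0.421 across genes, but 2 pairs cannot show that the numbers pair the samples. The causes of these changes were not tested. Depth limits Slc4a1, whose counts were 0 to 19.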
